A study of Homo sapiens with 6 samples.

Results

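The genes described here are 10 genes that growth factor signalling through the kinase ERK is known to switch on: the MAP kinase phosphatase genes DUSP4, DUSP5 and DUSP6, the Sprouty genes SPRY1, SPRY2 and SPRY4, the related SPRED1 and SPRED2, and the ETS transcription factor genes ETV4 and ETV5. They were picked by symbol out of 62696 genes in the deposited count tables, with the knockout against vector contrast of these data already known, so their differences are given as values with standard errors and without p-values. C4-2 is a human cell line of castration-resistant prostate cancer, grown here in RPMI medium with 10% fetal bovine serum and no treatment. The control group was 3 libraries of C4-2 cells carrying the vector (VEC, genotype WT in the labels), and the other group was 3 libraries of C4-2 cells labelled as a CDK12 knockout made with CRISPR-Cas9 (CDK12KO). The series title speaks of a knockdown, and the labels used here name no guide, no clone and no separate cultures, so the p-values given for other genes rest on library-to-library spread that may be technical, and loss of CDK12 cannot be told apart from other ways in which the 2 lines may differ.

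ERK signalling limits itself. Receptor tyrosine kinases activate RAS, RAF, MEK and ERK in turn, and ERK then raises genes whose products act back on the same chain. DUSP proteins remove the activating phosphates from ERK and related kinases, Sprouty and SPRED proteins act between the receptor and RAF, and ETV4 and ETV5, of the PEA3 group of ETS factors, carry part of the transcriptional response. For this reason the levels of these genes are often read as a record of ERK activity, although each also has its own regulators. In prostate cancer ETV4 and ETV5 are also known as partners in gene fusions.

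Libraries held 16617644 to 21590817 counts in genes. Mean CDK12 RNA was 55.1 ± 6.35 CPM (reads of a gene relative to the TMM-scaled library total) with the vector and 58.1 ± 2.35 CPM with the knockout (SD, n = 3 each), a whole-gene count that does not check the knockout. Knockout library 2 stood apart: it correlated with the other 5 libraries across genes at 0.916 to 0.950, against 0.977 to 0.990 among those 5, and its TMM factor was 0.737 against 1.04 to 1.10. Results are therefore given with and without it. All 10 luminal epithelial markers were measured (summed level 9030 to 9124 CPM in the vector and 7706 to 10703 CPM in the knockout line). The 5 immune markers summed to at most 2.41 CPM, with CD3E at 0, and the 5 endothelial markers to 5.77 to 6.40 and 7.36 to 11.3 CPM, with PECAM1 at 0. The 6 basal markers summed to 1.59 to 2.69 and 2.50 to 5.41 CPM, with TP63 at 0, and the 6 fibroblast markers to 22.7 to 24.6 and 25.5 to 32.4 CPM, with DCN at 0. Among the latter COL1A2 went against the sum, with 22, 20 and 10 counts in the vector libraries and 0 in each knockout library. The part of these other cell types' markers in the results was not tested.

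Across the 10 genes there was no common shift between the lines. DUSP4 was several-fold higher in every knockout library and DUSP5 was 2.24-fold higher, at levels of only 1.32 to 4.03 CPM. SPRY1 was higher in 2 of the 3 knockout libraries. SPRY2 had the lower mean in the knockout line, with overlapping groups. SPRY4, SPRED1 and SPRED2 overlapped between the lines, and DUSP6, ETV4 and ETV5 were barely detected in either line. In bulk RNA more RNA per cell and more cells that express a gene cannot be told apart. In edgeR's quasi-likelihood fit of all 6 libraries 7 of the 10 genes passed the filter on low counts and 1 of them, DUSP4, passed an adjusted p of 0.05, where 0.596% of 15783 tested genes did (0.418% higher, 0.177% lower). Without knockout library 2 the same test called DUSP4, DUSP5 and SPRY1, all higher, where 19.1% of 16339 genes were called (10.2% higher, 8.88% lower). Over the 7 tested genes the log2 fold change had a median of 0.04, and 0.23 without knockout library 2, beside 0.000373 and -0.01 over all tested genes. The count with all 6 libraries was 0 without vector library 1, 2 or 3, where only 4, 4 and 6 of all genes were called. It was also 0 with a replicate block, where 5 of all genes were called. DESeq2 counted DUSP5 as well, where it called 980 of all genes. DUSP5 and SPRY1 dropped out of the count without knockout library 2 when knockout library 3 was also left out. These counts describe genes picked with this contrast in view, and nothing is read from them.

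**Figure D1:**
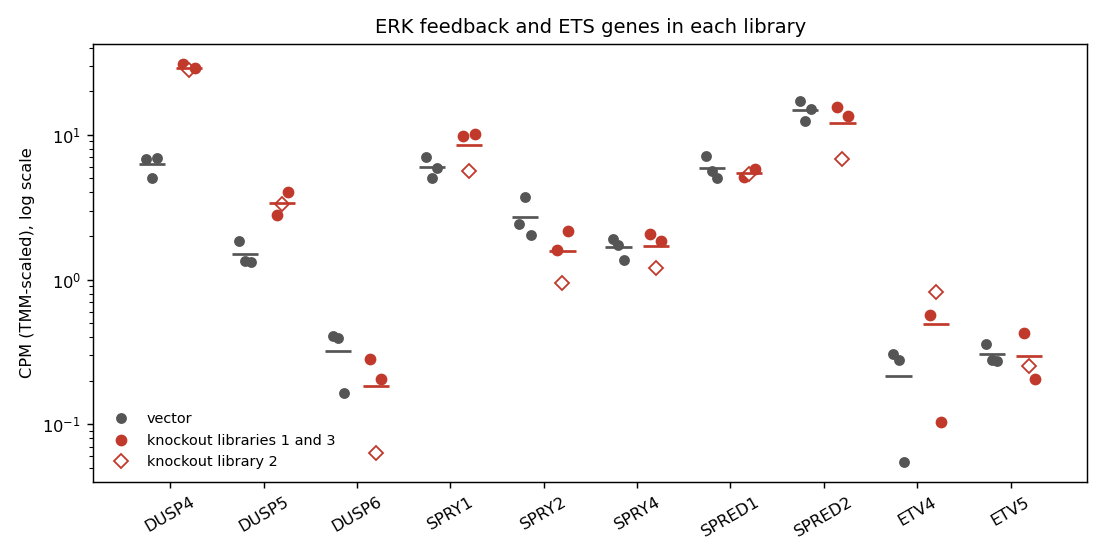
CPM (log axis) of the 10 genes in each library, with vector libraries in grey and knockout libraries in red, knockout library 2 as an open diamond, and horizontal lines at the group means. DUSP4 sits at 5.04 to 6.92 CPM in the vector and 27.9 to 30.9 CPM in the knockout libraries, while DUSP6, ETV4 and ETV5 lie below 1 CPM in all 6 libraries.

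DUSP4 (ENSG00000120875.9, chromosome 8, 29333064 to 29350668, GRCh38 as annotated by GENCODE 29) encodes a nuclear phosphatase induced by ERK that acts on ERK and JNK. Vector libraries 1 to 3 held 132, 90 and 126 counts, or 6.75, 5.04 and 6.92 CPM. The knockout libraries held 655, 443 and 556 counts, or 30.9, 27.9 and 28.8 CPM. The groups lay far apart, and the spread inside each (SD 1.04 and 1.57 CPM, n = 3) was small beside the gap between the means of 6.24 and 29.2 CPM. Knockout library 2, which differed from its companions over much of the transcriptome, had a log2 CPM 0.10 below their mean here, on the TMM scale. Relative to total gene counts alone, without that scaling, it was lower than they were, at 20.5 CPM against 32.3 and 30.3 CPM. The log2 fold change was 2.22 ± 0.17 (SE), a 4.67-fold difference, and 2.25 ± 0.14 without that library. With 1 library left out it ranged from 2.09 to 2.30 on the log2 scale.

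DUSP5 (ENSG00000138166.6, chromosome 10, 110497838 to 110511544) encodes a nuclear phosphatase specific for ERK. It was counted 36, 24 and 24 times in the vector libraries (1.84, 1.34 and 1.32 CPM) and 59, 53 and 78 times in the knockout libraries (2.79, 3.33 and 4.03 CPM). All knockout values lay above all vector values, at a level low enough that a few counts matter. The log2 fold change was 1.17 ± 0.27 over all 6 libraries, a 2.24-fold difference, and 1.17 ± 0.30 without knockout library 2. With knockout libraries 2 and 3 both left out it was 0.88. DUSP4 and DUSP5 were the 2 genes of the 10 whose groups did not overlap, where 39.4% of all tested genes did not overlap (20.4% higher and 19% lower in the knockout).

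DUSP6 (ENSG00000139318.8, chromosome 12, 89347232 to 89353271) encodes the cytoplasmic ERK phosphatase that is most often used as a readout of ERK output. It gave 8, 7 and 3 counts in the vector libraries and 6, 1 and 4 in the knockout libraries, and the groups overlapped. DUSP6 did not pass the filter on low counts, so no fold change was fitted. DUSP6 shares 1875 exonic bases with an antisense gene on the other strand (ENSG00000274021), and STAR's unstranded column counts a read that falls in both for neither. Adding the 2 stranded columns, which keep such reads, raised its total over 6 libraries from 29 to 41, still among the lowest of the 10. Only 0.526% of the genes tested had a lower mean level than DUSP6 in the vector line.

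Among the Sprouty genes, adaptors that block signalling from receptors to RAS and RAF, no common direction was seen. SPRY1 (ENSG00000164056.11, chromosome 4, 123396795 to 123403760) stood at 7.01, 5.04 and 5.93 CPM in vector libraries 1 to 3 and at 9.87, 5.60 and 10.2 CPM in knockout libraries 1 to 3. Knockout libraries 1 and 3 lay above every vector library, and knockout library 2 lay within the vector range. The log2 fold change was 0.51 ± 0.27 over all 6 libraries. Leaving out knockout library 2 gave 0.73 ± 0.17, and leaving out knockout library 3 too gave 0.71. Without knockout library 2, 3 of the 10 genes had groups apart, DUSP4, DUSP5 and SPRY1, where 47.2% of all tested genes did (24.5% higher, 22.8% lower).

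SPRY2 (ENSG00000136158.12, chromosome 13, 80335976 to 80340951) stood at 2.41, 3.69 and 2.03 CPM in vector libraries 1 to 3 and at 1.61, 0.944 and 2.17 CPM in knockout libraries 1 to 3. The groups overlapped through vector library 3 and knockout library 3, and knockout library 2 was the lowest. The log2 fold change was -0.77 ± 0.39 and -0.53 ± 0.32 without knockout library 2, the lowest of the 7 tested genes in both fits, and its size ranged from -1.07 to -0.49 with 1 library left out. SPRY4 (ENSG00000187678.10, chromosome 5, 142310427 to 142326455) stood at 1.89, 1.74 and 1.37 CPM in vector libraries 1 to 3 and at 2.08, 1.20 and 1.86 CPM in knockout libraries 1 to 3. Its log2 fold change was 0.04 ± 0.31 and 0.23 ± 0.32 without knockout library 2, and scaling by total counts alone turned it to -0.10. Its antisense partner SPRY4-AS1 gave at most 1 count in any library.

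DUSP6 and the Sprouty and SPRED genes, 6 of the 10, were matched by symbol to promoter sequences from RefSeq (GRCh38.p14). In the 250 bases before 10 RefSeq starts of these 6, letters of sites through which ERK is known to act were searched. Both strands were read. No promoter window of DUSP4, DUSP5, ETV4 or ETV5 entered the search, so it says nothing on sites before these genes or on whether RefSeq holds their promoters. The RefSeq starts beside the stretches of SPRY1, DUSP6 and SPRY4 lie inside the GENCODE spans given here, which reach farther upstream. The stretches below show the matches, on the gene's strand with the matched letters in capitals, because they set a start of SPRY1, whose groups lay apart without knockout library 2, beside those of SPRY2, SPRY4 and DUSP6, whose groups overlapped.
SPRY1, chr4:123398308-123398337, plus strand: gccctccgcagcCGGAAGggggccgcgggg
DUSP6, chr12:89352546-89352575, minus strand: cggcaacagcccCTTCCGcagcacgctcat
SPRY4, chr5:142324298-142324327, minus strand: tcttcggagccgTGACGgactgaattccct
SPRY2, chr13:80341299-80341328, minus strand: ctcggatccacaTGACGccatttactgctg
The ETS core CGGAAG was found in 2 of 10 windows, 66 bases before a RefSeq start of SPRY1 and, read on the other strand, 62 bases before that of DUSP6, and 16.5% of all 35116 promoters hold it. TGACG, the core of a cyclic AMP response element, was found in 2 windows, 68 bases before the RefSeq start of SPRY4 and 190 before one of SPRY2, and 21.2% of all promoters hold it. The longer letters CCGGAAGT, TGACGTCA, TGANTCA (AP-1), TGAATGAA and TGAATGGA (Capicua), and the CArG box of serum response factor, were in none of the 10 windows, and in 3.42%, 1.65%, 6.57%, 1.40%, 0.832% and 1.16% of all promoters. These are matches of letters in short windows and no measure of binding.

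SPRED1 and SPRED2 encode membrane proteins that bring the RAS-inactivating protein neurofibromin to RAS. SPRED1 (ENSG00000166068.13, chromosome 15, 38252326 to 38357249) stood at 7.16, 5.65 and 5.00 CPM in vector libraries 1 to 3 and at 5.10, 5.35 and 5.79 CPM in knockout libraries 1 to 3. The knockout libraries, with library 2 among them, lay inside the vector range, and the log2 fold change was -0.13 ± 0.20 (-0.14 ± 0.20 without knockout library 2). SPRED2 (ENSG00000198369.10, chromosome 2, 65310851 to 65432637) stood at 17.1, 12.5 and 15 CPM in vector libraries 1 to 3 and at 15.7, 6.79 and 13.6 CPM in knockout libraries 1 to 3. Here knockout library 2 alone lay below the rest, and the log2 fold change of -0.30 ± 0.31 became -0.03 ± 0.14 without it. Their signs were not stable: SPRED1 turned to 0.02 without vector library 1, and SPRED2, in the fit without knockout library 2, to 0.10 without the same vector library.

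ETV4 (ENSG00000175832.13, chromosome 17, 43527844 to 43579620) and ETV5 (ENSG00000244405.8, chromosome 3, 186046308 to 186110318) were near the limit of detection. ETV5 gave 7, 5 and 5 counts in the vector libraries and 9, 4 and 4 in the knockout libraries. ETV4 gave 6, 5 and 1 counts and 12, 13 and 2 counts. The values overlapped for both genes, and neither passed the filter on low counts. The ETV4 level depended on the counting: it overlaps DHX8, an expressed gene on the other strand (49.1 ± 2.10 CPM in the vector libraries, SD, n = 3), in 68 exonic bases, and the sum of the stranded columns was 107 against 39 in the unstranded column over all libraries. In those sums ETV4 had 20, 9 and 13 counts in the vector and 27, 27 and 11 in the knockout libraries, a log2 fold change of 0.62 ± 0.49 (0.29 ± 0.51 without knockout library 2), and reads of the 2 genes cannot be told apart there. For 7 of the 10 genes both ways of counting gave the same total, and SPRY4 differed by 1 count (193 against 192).

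**Figure D2:**
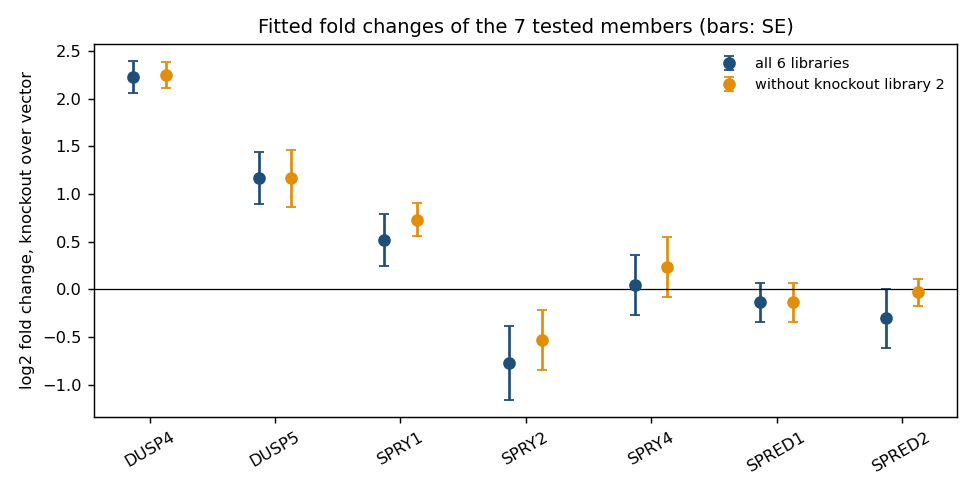
Log2 fold change of knockout over vector (y axis) for the 7 tested genes, with SE as bars, from all 6 libraries (blue) and without knockout library 2 (orange). DUSP4 stands at 2.22 and 2.25, DUSP5 at 1.17 in both fits, and SPRY1 moves from 0.51 to 0.73.

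Knockout library 2 was lower than the mean of knockout libraries 1 and 3 for 9 of the 10 genes. The difference in log2 CPM was -1.09 for SPRED2, -1.04 for DUSP6, -0.91 for SPRY2, -0.83 for SPRY1 and -0.67 for SPRY4, and between -0.19 and -0.01 for ETV5, DUSP4, SPRED1 and DUSP5. ETV4 was higher by 1.30 from 13 counts. Over all tested genes the 5th percentile, median and 95th percentile of this difference were -1.43, -0.04 and 1.41, and each of the values above lay between these percentiles. DUSP6, ETV4 and ETV5 are not among the tested genes, and at 1 to 13 counts the prior count weighs on their log2 CPM. The negative median means that this library was lower for the larger part of tested genes too. No exact share is given, and nothing is read from the 9 of 10. The part of this library's other differences in these values was not tested.

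Set on a scale per length, SPRED2 and SPRY1 led in the vector line and DUSP6, ETV4 and ETV5 came last. In CPM per kilobase of exons SPRED2 led at 2.89 ± 0.452 (SD, n = 3), followed by SPRY1 at 1.51 ± 0.249. SPRY2 at 0.892 ± 0.287, DUSP4 at 0.860 ± 0.144, SPRED1 at 0.719 ± 0.134 and DUSP5 at 0.574 ± 0.113 came next, and each overlapped its neighbour in that order. SPRY4 was separate below them at 0.254 ± 0.0406, and DUSP6, ETV4 and ETV5, at 0.0695 ± 0.0295, 0.0593 ± 0.0384 and 0.0524 ± 0.00806, overlapped each other. In the knockout line DUSP4 stood first at 4.02 ± 0.216 CPM per kilobase, above SPRED2 at 2.33 ± 0.901 and SPRY1 at 2.16 ± 0.646, and DUSP5 reached 1.29 ± 0.239. With the length of the longest transcript in place of all exons 5 of the 10 genes kept their rank.

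**Figure D3:**
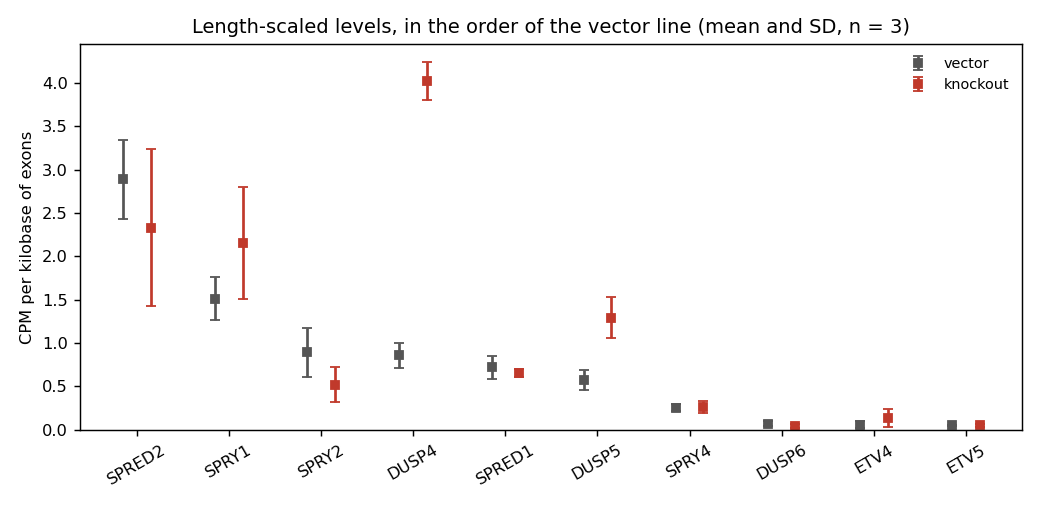
Mean and SD (n = 3) of CPM per kilobase of exons, vector libraries in grey and knockout libraries in red, with genes in the order of the vector line. DUSP4 has rank 4 in the vector line at 0.860 and the highest mean in the knockout line at 4.02, where SPRED2 follows at 2.33.

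The genes whose pattern over the 6 libraries was most like DUSP4, by Pearson correlation of log2 CPM over 9762 genes (protein-coding, mean level 5 CPM or more), were UGT2B28 (0.998), UGT2B17 (0.996), DEPTOR (0.995), UGT2B11 (0.995) and ASPH (0.995). UGT2B enzymes glucuronidate steroids and resemble each other closely in sequence, which makes their separate counts uncertain. DEPTOR binds and inhibits the kinase mTOR, and ASPH is an aspartyl hydroxylase. DEPTOR had means of 3.19 CPM with the vector and 7.68 CPM with the knockout. For SPRY2 they were ARHGDIA (0.992), SGSH (0.982), ICAM5 (0.980), GMEB1 (0.979) and WNK2 (0.977), with log2 fold changes of -0.26 to -0.09, against -0.77 for SPRY2. The 6 libraries fall into 2 lines and share the departure of knockout library 2, so these correlations are a description only.

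Outside these 10 genes, 185 other genes of the pathway in 9 lists were examined for the same contrast. With all 6 libraries 139 were tested and 3 were called in edgeR, PHLDA1 and FOS higher and IGF1R lower, which is 2.16% beside 0.596% of all genes, with DESeq2 calling 13 and limma-voom 2. All 3 calls were lost when any library other than knockout library 2 was left out (edgeR adjusted p up to 0.217, 0.198 and 0.264). Without knockout library 2, 21 of 140 rose and 14 fell, or 25% beside 19.1% of all genes, and the median log2 fold change was -0.04 beside -0.01. Of these 35 genes 26, 35 and 26 kept the call without vector library 1, 2 or 3, and 18 and 16 without knockout library 1 or 3. The 13 genes called in all 5 of these fits were FOS, PHLDA1, JUNB, DOK1, MRAS, KSR2, FGFR1 and MKNK2, which rose, and IGF1R, FGFRL1, LRIG1, RPS6KA3 and CCND1, which fell. The calls, fold changes and tests that follow are from edgeR's fit without knockout library 2 unless stated. The CPM means with SD that follow are over all libraries of a group, knockout library 2 included.

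Ligands and receptors moved in both directions. Of 9 measured ligand genes 1 fell, IGF1 (log2 -0.33 ± 0.10, edgeR adjusted p = 0.0258). The call was lost without vector library 3, and the log2 fold change ranged from -0.42 to -0.25 with a further library left out. The IGF1 value depended on the counting: the sum of the stranded columns gave -0.54. With all 6 libraries that sum gave -0.42, against -0.02 from the unstranded column. Knockout library 2 lay above the vector libraries at 49.2 CPM of IGF1. AREG, EPGN, HGF, NRG1 and NRG3 gave no count in any library. Of 16 receptor genes 3 rose and 2 fell, with a median of -0.11. FGFR1, a receptor of fibroblast growth factors, went from 3.49 ± 0.502 to 6.68 ± 1.38 CPM over all libraries (SD, n = 3 each), with a log2 fold change of 1.09 ± 0.20. FGFRL1, a related receptor that lacks a kinase domain, went from 323 ± 8.73 to 202 ± 9.84 CPM and fell by 0.72 in log2 (edgeR adjusted p = 2.09e-07), and knockout library 2 stood with its companions at 213 CPM. IGF1R, the receptor of insulin-like growth factor 1, had 51.4 ± 2.08 and 20.2 ± 5.32 CPM and fell by 1.17 on the log2 scale. EPHA2, an ephrin receptor counted also among the targets of ERK, rose by 0.41 ± 0.11, while knockout library 2 lay below the vector libraries at 15.4 CPM, and the call was lost without vector library 1 or knockout library 1 or 3 (edgeR adjusted p up to 0.124).

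Between receptor and ERK, the called genes had no common direction. Of 18 adaptor and RAS genes 2 rose and 1 fell, with a median of -0.04. MRAS, a RAS relative that activates RAF together with SHOC2, went from 1.71 ± 0.676 to 5.37 ± 0.550 CPM over all libraries and rose by 1.56 ± 0.29 in log2 (edgeR adjusted p = 0.000820). HRAS rose by 0.27 ± 0.08 and PTPN11, the phosphatase SHP2, fell by 0.32 on the log2 scale. Both calls were lost when any one of 4 other libraries was left out. With a further library left out the log2 fold changes ranged from 0.23 to 0.36 for HRAS and from -0.43 to -0.24 for PTPN11. HRAS stood at 308 CPM in knockout library 2 against 119 and 117 CPM in its companions, and with that library its log2 fold change was 0.90 ± 0.38, which did not pass. Of 17 kinase and scaffold genes 3 rose and 2 fell, with a median of -0.13. The RAF scaffold gene KSR2 went from 0.995 ± 0.213 to 3.36 ± 0.853 CPM (log2 1.52 ± 0.32). MKNK2, a kinase that ERK activates to phosphorylate the translation factor eIF4E, rose by 0.42 ± 0.06 from 362 ± 13.8 CPM, and RPS6KA3, the ERK-activated kinase RSK2, fell by 0.66 from 77.8 ± 9.41 CPM. MAPK3, which encodes ERK1, rose by 0.36 ± 0.08 (edgeR adjusted p = 0.00537), and the call was lost without knockout library 1 (edgeR adjusted p = 0.123).

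Relatives and other brakes on the pathway gave a mixed picture too. Of 8 measured relatives of the 10 genes 2 rose, DUSP9 and DUSP1, with a median of 0.12. DUSP9, a cytoplasmic ERK phosphatase, went from 62.7 ± 5.31 to 82.6 ± 4.22 CPM over all libraries (log2 0.35 ± 0.08, edgeR adjusted p = 0.00462). DUSP1, an immediate early phosphatase, rose by 0.40 ± 0.10, with knockout library 2 below the vector libraries at 15.7 CPM, and both calls were lost without knockout library 1 or 3 (edgeR adjusted p up to 0.0823 and 0.0997). Of 16 other negative regulators 3 rose and 2 fell, with a median of -0.16. DOK1, an adaptor that recruits a RAS-inactivating protein, went from 0.796 ± 0.457 to 3.54 ± 0.645 CPM and rose by 2.17 ± 0.38 in log2 (edgeR adjusted p = 0.000471). LRIG1, which promotes the removal of ERBB receptors, went from 9.59 ± 2.43 to 3.40 ± 2.29 CPM, with knockout library 2 lowest at 0.755 CPM, and fell by 1.03 on the log2 scale. TOB1, an antiproliferative protein phosphorylated by ERK, fell by 0.42 (edgeR adjusted p = 0.00294, and 0.0608 without knockout library 3), and PEBP1, the RAF inhibitor RKIP, rose by 0.21 ± 0.06 (up to 0.211 over the alternatives).

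The other targets of ERK did not move as one. Of 24 measured genes 7 rose and 2 fell, with a median log2 fold change of 0.09. PHLDA1, a pleckstrin homology domain gene used beside the Sprouty and DUSP genes as a marker of MEK output, stood at 7.98, 8.90 and 8.85 CPM in the vector and 18.2, 18.6 and 17.7 CPM in the knockout libraries. The groups lay apart with little spread, knockout library 2 included, and the log2 fold change was 1.06 ± 0.13 (edgeR adjusted p = 1.77e-05). FOS, a subunit of AP-1, rose by 3.68 ± 0.26 and JUNB, its partner, by 0.48 ± 0.08. The FOS value starts from a low level, 0.512, 0.728 and 0.934 CPM in the vector libraries. Knockout libraries 1 to 3 had 9.06, 4.28 and 9.62 CPM of FOS. CCND1, which encodes cyclin D1 and is a classical ERK target, went the other way, from 211 ± 12.1 to 163 ± 2.72 CPM over all libraries (log2 -0.37 ± 0.07, edgeR adjusted p = 0.000887).

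Of 17 measured ETS factors outside the PEA3 group and Capicua genes, 2 rose and 4 fell, with a median of -0.09, and ERG and FLI1 gave no count in any library. Capicua is the repressor that ERK is known to inactivate at ETV4, ETV5 and several DUSP genes, and ATXN1 and ATXN1L are its partners. ATXN1L fell by 0.47 (edgeR adjusted p = 0.00729, and 0.145 without knockout library 3) and ATXN1 rose by 0.43 ± 0.13 (0.0271, and up to 0.230 over the alternatives). The serum response partner ELK4 fell by 0.39 (0.00654, and 0.0892 without knockout library 3) and the prostate factor SPDEF fell by 0.25, with knockout library 2 at 305 CPM, above the vector mean of 280 CPM, and the SPDEF call was lost without vector library 1 or knockout library 1 or 3 (edgeR adjusted p up to 0.231). For the JNK, p38 and ERK5 arms 0 of 16 genes were called in either edgeR fit, where 0.596% and 19.1% of all genes were. In edgeR 2 and 3 of them had an unadjusted p under 0.05, for which no share over all genes is given. DESeq2 and limma-voom called 0 in both. The count of 0 was not stable without knockout library 2: edgeR called 5 when vector library 2 was left out as well, 5 with a replicate block, 2 with the sum of stranded columns and 1 with a filter at 1 CPM in 3 libraries. In those settings it called 4703, 5540, 3794 and 3025 of all genes, so nothing is read from these counts.

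**Figure D4:**
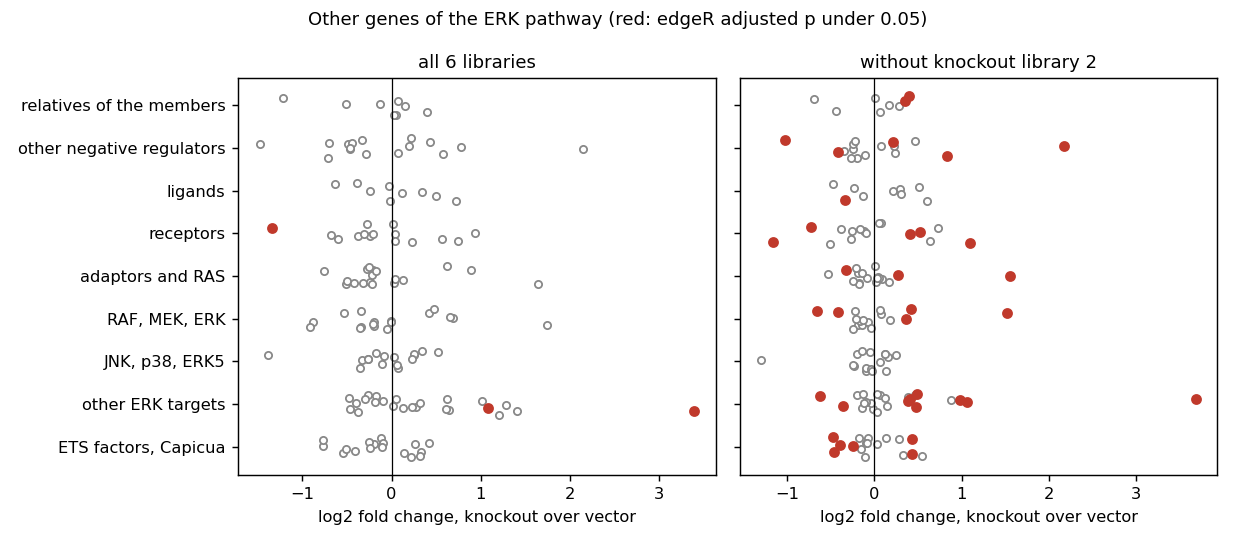
Log2 fold change of knockout over vector (x axis) for each tested gene of the 9 lists (rows, with vertical scatter only to separate points), from all 6 libraries (left) and without knockout library 2 (right), and genes past an edgeR adjusted p of 0.05 in red. The left panel holds 3 called genes and the right panel 35, with EPHA2 drawn in 2 lists, on both sides of 0.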

How the data were processed

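The values are deposited counts of reads, in whole numbers for each gene, 1 file per library. Genes took 67.4 to 70.3% of reads, and the 4 summary rows that hold the others entered neither library sizes nor tests. Per the submitters' processing notes the tools were FastQC and STAR with GRCh38. Versions, counting settings and the annotation release: not given in the sources used here. The layout is that of STAR gene counts, with 1 unstranded and 2 stranded columns. The stranded sums had ratios of 1.02 to 1.04, so the unstranded column was used, which cannot separate a gene from one antisense to it. Tests used edgeR 4.0.16 under R 4.3.3 (filter by filterByExpr, TMM factors, robust quasi-likelihood fit, Benjamini-Hochberg over all tested genes, threshold 0.05). DESeq2 1.42.0 and limma 3.58.1 (voom) served as alternatives. The edgeR fits were also run on simulated counts, drawn gene by gene without a library-wide departure like that of knockout library 2. That simulation therefore cannot show how such a departure affects the calls. SE is the log2 fold change divided by the root of F. CPM use effective library sizes, and log2 CPM a prior count of 2. Coordinates and exon lengths are from GENCODE 29 (96.6% of tested genes matched). Total depth was 24660798 to 30732841 reads per library. Libraries of a group differed by more than sampling noise (chi-square over its degrees of freedom 3.27 or more).

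The 10 genes, the 9 pathway lists and the marker lists were chosen with earlier results of these data known. Named genes are the 10, CDK12, genes overlapping them, up to 4 called genes per pathway list by adjusted p (first from all 6 libraries, then without knockout library 2), and the 5 most correlated genes for the highest and the lowest of the 10. Beyond that rule, the 13 list genes called in every leave-one-out fit were singled out after their values were seen. The sum of the stranded columns, and DESeq2, limma-voom and the block for the lists, were added after the data were seen.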

Additional observations from a re-analysis of the deposited data

How the results depend on the processing

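The 94 genes called with all 6 libraries became 12 at an adjusted p of 0.01, 39 (32 higher, 7 lower) with total counts in place of scaling factors, which moved the median of all genes from 0.000373 to -0.18, 363 without a filter on low counts, 980 in DESeq2, 5 with a replicate block, and 4 to 3123 with 1 library left out. Without knockout library 2 the 3123 became 1656 at 0.01, 5540 with a replicate block, and 1134 to 4703 with a further library left out, where a lone knockout library is assumed to vary like the vector libraries. The 3 called pathway genes became 0 with total counts, 7 without a filter, 35 without knockout library 2, 0 with a replicate block and 13 in DESeq2. The rank of the 10 genes per length held for 5 with the longest transcript. The causes were not tested. Same-numbered libraries deviated together at correlations of 0.135, 0.194 and 0.0841, and 6 of 6 libraries correlated best with their own number across groups. The labels tie them by number only, and whether they share a batch was not tested. The main fits treat them as unpaired. In the block fit without knockout library 2, vector library 2 has no partner and adds nothing. Among the 7 tested genes of the 10, the sign of DUSP4, DUSP5, SPRY1 and SPRY2 was the same in all 15 alternatives with all libraries and all 14 without knockout library 2, and that of SPRY4 changed in 4 of 15, SPRED1 in 1 of 15 and 1 of 14, and SPRED2 in 2 of 14. DUSP6, ETV4 and ETV5 at 1 to 13 counts per library allow no statement on a change of ordinary size.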

Other observations

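The count tables hold 24 genes named DUSP with a number, of which 19 were tested and 17 lie outside the 10 genes above. This set was chosen by name after the data were seen. With all 6 libraries 0 of the 17 passed in edgeR (5 had an unadjusted p under 0.05), while DESeq2 called 2 and limma-voom 0, where these tools called 94, 980 and 105 of all genes. Without knockout library 2, 3 rose and 1 fell in edgeR, with 4 called by DESeq2 and 5 by limma-voom, where edgeR called 19.1% of all genes tested (3123 genes, against 2625 by DESeq2 and 3055 by limma-voom), so nothing particular to this family is read from the count. Beside DUSP1 and DUSP9, the atypical phosphatase DUSP12 rose by 0.52 ± 0.13 (log2, edgeR adjusted p = 0.00718), from 12.97 ± 1.33 to 22.1 ± 6.03 CPM over all libraries. DUSP14, an atypical phosphatase gene, stood at 1.13, 1.74 and 1.10 CPM in the vector and 0.142, 0.566 and 0.0517 CPM in the knockout libraries, from 3, 9 and 1 counts. With all 6 libraries its log2 fold change was -2.43 ± 0.69 and did not pass (edgeR adjusted p = 0.173). Leaving out knockout library 2, it fell by 3.66 ± 0.67 (log2, edgeR adjusted p = 0.000780), a size that rests on 4 counts in the remaining knockout libraries. DUSP2, a nuclear phosphatase of the same inducible group as DUSP4 and DUSP5, stood at 86.0 ± 3.40 CPM with the vector and 87.7 ± 2.02 CPM with the knockout (SD, n = 3 each), with overlapping groups and a log2 fold change of 0.03 ± 0.10.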
